A study of Mus musculus with 6 samples.

Results

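The secreted Wnt antagonists described here are 9 genes, listed by name: Sfrp1, Sfrp2, Sfrp5, Sfrp4, Frzb, Wif1, Sost, Dkk2 and Dkk3. They are 9 of the 27998 genes counted in single cells of mouse aorta, and their levels are given by cell type, by cluster within smooth muscle and fibroblasts, and by diet. All 9 are annotated as protein-coding genes and all 9 were detected. The 6 samples were aortas of C57B/6J mice aged 18 weeks, with 3 control samples (normal diet) and 3 high-fat diet samples. The labels give no duration of the diet, no genotype beyond the strain, and do not say whether samples came from separate animals; p-values below measure only the spread between these samples. Cells were released by collagenase digestion, caught in droplets and read as 3′ transcript tags, with a molecular barcode (UMI) to count each transcript a single time.

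Wnt proteins are secreted lipid-modified ligands that bind Frizzled receptors together with the co-receptors LRP5 and LRP6 and stabilise β-catenin in the receiving cell. Secreted antagonists act outside the cell on this step. The secreted frizzled-related proteins and Wif1 bind the ligands themselves, while sclerostin (the product of Sost) and the Dickkopf protein Dkk2 occupy the LRP co-receptors. In vessels the family is best known from smooth muscle phenotype, adventitial matrix and calcification, and sclerostin is otherwise known as a product of osteocytes in bone.

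Promoter sequences were in hand for 6 of the 9 genes (RefSeq, GRCm38.p6, the 250 bases before the annotated start, read on the gene's strand). Those of 4 genes whose transcripts came mainly from different cells are shown, since they let a reader compare what lies at their starts. Capitals mark matches to the TATA box TATAAA or to the E-box CANNTG, the letters bound by many basic helix-loop-helix factors. The windows are chr11:101967016-101967265 (minus strand) for Sost, chr19:42202253-42202502 (minus strand) for Sfrp5, chr10:121033754-121034003 (plus strand) for Wif1 and chr3:132085042-132085291 (plus strand) for Dkk2.
Sost: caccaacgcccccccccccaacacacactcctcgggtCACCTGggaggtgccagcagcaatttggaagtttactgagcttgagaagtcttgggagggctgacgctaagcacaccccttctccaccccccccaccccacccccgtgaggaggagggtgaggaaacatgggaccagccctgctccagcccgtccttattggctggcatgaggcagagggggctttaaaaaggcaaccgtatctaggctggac
Sfrp5: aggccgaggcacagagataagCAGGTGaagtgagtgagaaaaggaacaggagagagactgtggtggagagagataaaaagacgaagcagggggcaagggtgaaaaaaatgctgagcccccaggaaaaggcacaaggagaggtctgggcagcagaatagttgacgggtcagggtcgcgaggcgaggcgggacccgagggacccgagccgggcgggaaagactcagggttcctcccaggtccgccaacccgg
Wif1: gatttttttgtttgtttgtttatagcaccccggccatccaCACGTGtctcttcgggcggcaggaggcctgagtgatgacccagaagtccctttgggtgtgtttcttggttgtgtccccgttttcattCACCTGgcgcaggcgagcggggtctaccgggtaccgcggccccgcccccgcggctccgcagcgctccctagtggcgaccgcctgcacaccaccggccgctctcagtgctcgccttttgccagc
Dkk2: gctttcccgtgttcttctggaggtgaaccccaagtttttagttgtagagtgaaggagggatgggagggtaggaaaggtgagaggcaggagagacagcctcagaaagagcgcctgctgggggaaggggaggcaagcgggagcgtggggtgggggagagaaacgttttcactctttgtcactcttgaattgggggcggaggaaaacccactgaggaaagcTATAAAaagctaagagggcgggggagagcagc

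The TATA box letters lay 32 to 27 bases before the start of Dkk2 and in no other of the 6 windows, while 8.12% of 27025 promoter windows of the same length hold them. An E-box was found in 4 of the 6 windows (Frzb, Wif1, Sost and Sfrp5), against 66.0% of all windows. The TCF/LEF core ATCAAAG, the letters read by the transcription factors of β-catenin, was in 0 of 6 windows on either strand and in 3.23% of all windows. The CArG box of serum response factor, a regulator of contractile genes, was in 0 of 6 and in 1.40% of all windows. These are matches of letters in a short window and not binding sites.

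Total depth was 41388034 to 83886418 UMIs per sample, from 6623 to 18138 cells with a median of 3856 to 5955 UMIs per cell. Of 62838 cells, 58034 were kept after filters on genes, mitochondrial share and doublets. Across samples, 999 barcodes (1.62%) occurred in more than 1 sample. Cell names were rebuilt from marker genes: 20 classes were named, and fibroblast-like cells (19830) and smooth muscle- and pericyte-like cells were divided into clusters called F0 to F11 and S0 to S12. The antagonists and the other Wnt genes were kept out of the genes used for clustering, so their levels did not define the clusters. Levels are CPM (a gene's UMIs scaled to a fixed total of UMIs) of the summed cells of a type in a sample, given only for samples with 20 or more such cells and listed in the order of the replicate numbers. Because RNA freed in the suspension reaches every droplet, the level in leukocyte-like cells (macrophage-, dendritic-, B- and T or NK-like), which are not known to make these proteins, is given as the background.

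The 9 genes had different main sources, and the map of mean levels shows few clusters holding several of them at a high level. Smooth muscle-like cells held 85.8% of Sost UMIs. Fibroblast-like cells held 91.9% of Dkk2, 87.4% of Sfrp4, 75.0% of Sfrp1 and 64.5% of Sfrp2 UMIs. Chondrocyte-like cells held 51.7% of Wif1 UMIs, and 47 perineurial-like cells held 47% of Sfrp5 UMIs. Dkk3 was divided between smooth muscle-like (42.9%) and fibroblast-like cells (40.5%), and Frzb was mostly in fibroblast-like cells (55.5%).

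**Figure D1:**
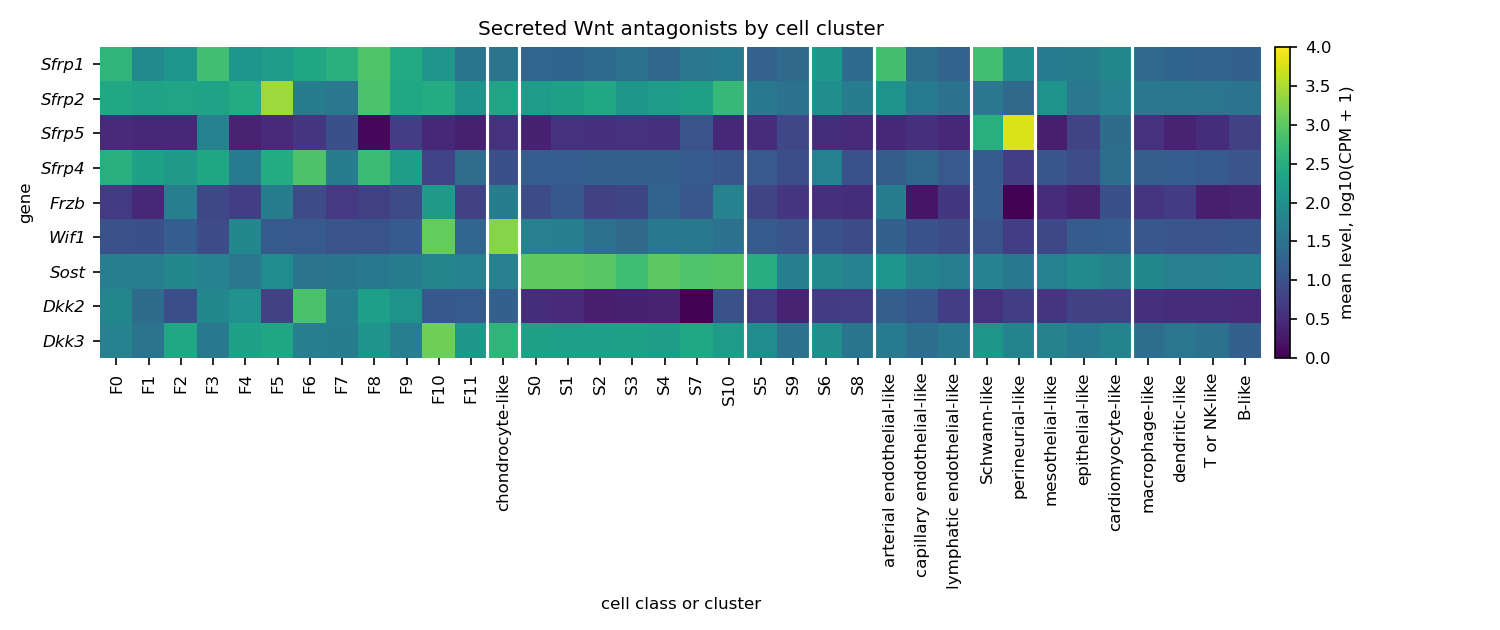
Mean level of each antagonist (vertical axis) in each cell class or cluster (horizontal axis), as log10(CPM + 1) averaged over samples with at least 20 cells; the perineurial-like column is pooled over the 6 samples. Sost is brightest in clusters S0, S1, S4, S2, S10 and S7, Sfrp2 in F5, Dkk2 in F6, Dkk3 in F10, Wif1 in chondrocyte-like cells and F10, and Sfrp5 in perineurial-like cells.

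Sfrp1 (ENSMUSG00000031548, GRCm38 chromosome 8, 23411502 to 23449632, plus strand) encodes a frizzled-related protein that binds Wnts through a cysteine-rich domain like that of the receptors. Among fibroblast-like clusters it was highest in F8 (led by Thbs4, Cilp and Tnmd), F3 (Cxcl14, Steap4 and Penk) and F0 (Sult1e1 and Cxcl13). In F3 Sfrp1 was 696, 572 and 261 CPM in the controls and 727, 734 and 714 CPM on high-fat diet. In F1 (Krtdap, Dact2 and Sema3c) the mean was 79.2 ± 21.2 CPM (SD, n = 6), so that F3 stood above F1 in 6 of 6 samples, by a median of 8.24-fold and a range of 3.53- to 12.3-fold. After each cell was thinned to 1000 UMIs, 36.4% ± 9.91 (SD, n = 6) of F3 cells had an Sfrp1 UMI, against 1.79% ± 0.92 of leukocytes. Before thinning the shares were 66.6% and 7.32%, at median depths of 4057 and 3133 UMIs.

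Sfrp1 was also high outside fibroblasts, in arterial endothelial-like and Schwann-like cells. The arterial endothelial-like class, which expressed 6 of 6 arterial markers, had 666, 1044 and 121 CPM in the controls and 496, 406 and 1241 CPM in the high-fat diet samples. Control 3 was the lowest, and the groups overlapped. Capillary endothelial-like cells had a mean of 27.1 CPM and lymphatic endothelial-like cells 17.9 CPM, near the leukocyte background of 19.97 ± 10.8 CPM (SD, n = 6). The arterial class was higher than the capillary class in 6 of 6 samples, by 15.5- to 55.5-fold, and the thinned shares of cells with an Sfrp1 UMI were 33.9% and 1.95%. In Schwann-like cells Sfrp1 was 604 ± 236 CPM (SD, n = 6). The 4 highest types, F8, arterial endothelial-like, F3 and Schwann-like, did not differ from their neighbours in the order by more than the larger SD. In smooth muscle-like cells the level, 22.5 ± 13.4 CPM, was near the background. Among the clusters of muscle and pericytes, S6 (Colec11 and Fst) had 136 ± 75.2 CPM and S8 (Higd1b and Steap4) 23.7 CPM, S6 being higher in 6 of 6 samples. S6 and S8 are not the pericyte-like class alone. In control 1 they had 103 and 50 cells, while that class had 28.

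Sfrp2 (ENSMUSG00000027996, chromosome 3, 83766321 to 83774316, plus strand) encodes a second member of that family, abundant in connective tissue. Its highest level was in fibroblast cluster F5, which was led by the small proteoglycan gene Fmod with Rbp4 and Mmp3. In F5 Sfrp2 was 1259, 2221 and 6171 CPM in the controls and 693, 1780 and 3178 CPM on high-fat diet. Control 3 was the highest and high-fat diet 1 the lowest, and the groups overlapped. The first and second gel-bead wells of high-fat diet 1 had 59.9 and 947 CPM, from 67 and 232 cells. Those of control 3 had 3646 and 6419 CPM, from 11 and 111 cells. F5 stood above F2 (Meox1 and Dio2) by 10.4- to 15.9-fold in 6 of 6 samples, and 46.4% ± 15.8 (SD, n = 6) of its thinned cells had an Sfrp2 UMI, against 3.40% of leukocytes. Next came F8 with 723 ± 385 CPM (n = 4), whose distance from F5 was less than the larger SD although F5 was higher in 4 of 4 shared samples.

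Smooth muscle-like cells also held Sfrp2, at 279, 282 and 68.9 CPM in the controls and 117, 149 and 99.4 CPM in the high-fat diet samples. These values were above the leukocyte level of the same sample in 6 of 6 samples. Per 1000 UMIs of the fibroblast collagen-binding gene Dcn, muscle cells carried 368 ± 233 Sfrp2 UMIs, fibroblast-like cells 47.6 ± 29.9 and macrophage-like cells 65.1 ± 22.8 (SD, n = 6 each). The Sfrp2 of smooth muscle-like cells was thus not in the proportion to Dcn that the fibroblast-like cells had. Among muscle clusters S10 (Grem1, Tfap2b and Rspo3) had the highest Sfrp2, at 464 and 954 CPM in controls 1 and 2 and 180 and 284 CPM on high-fat diet (replicates 1 and 2), the other 2 samples having no S10 cell. S10 was above S0 in 4 of 4 samples, by 1.37- to 4.38-fold.

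Sfrp4 (ENSMUSG00000021319, chromosome 13, 19623104 to 19632994, plus strand), a frizzled-related protein known from bone and from fibroblast matrix, was spread over more fibroblast clusters. It was highest in F6 (Ackr4, Nkx6-1 and Enpp2), at 573 and 840 CPM in controls 1 and 2 and 250 and 1416 CPM on high-fat diet (replicates 2 and 3), the samples with at least 20 such cells. F0 followed with 244, 362 and 453 CPM in the controls and 85.2, 238 and 554 CPM in the high-fat diet samples. Neighbours in the order F6, F8, F0, F5, F3, F1, F9 and F2 did not differ from each other by more than the larger SD. F6 was 12- to 46.9-fold above F7 (Ptn, Thbs4 and Ntng1) in 4 of 4 samples. High-fat diet 3 was the highest sample in F6, F8, F0, F1, F9 and F2; in F2 it had 656 CPM against 13 to 89.3 CPM in the other 5 samples. Smooth muscle-like cells (15.4 ± 8.86 CPM) and arterial endothelial-like cells (14.4 CPM) were near the leukocyte level of 14.1 CPM.

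Frzb (ENSMUSG00000027004, chromosome 2, 80411970 to 80447625, minus strand), the frizzled-related protein first known from cartilage, was a low gene, with 3261 UMIs in all. It was highest in F10, a fibroblast cluster led by the tendon factor gene Scx with Tbx20, Comp and Ucma, at 186 CPM in control 2 and 119 and 115 CPM on high-fat diet (replicates 1 and 2). The other 3 samples had fewer than 20 F10 cells. S10 (57.5 CPM), F2 (49.9), arterial endothelial-like cells (49.3), F5 (48) and chondrocyte-like cells (46.6) came next and were closer to each other than their larger SD. F1 had 1.81 ± 1.67 CPM (n = 6) from 29 UMIs in all, no more than the leukocytes (2.49 CPM). F2 was above F1 in 6 of 6 samples by 6.43- to 96.9-fold, a range that rests on these few F1 UMIs.

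**Figure D2:**
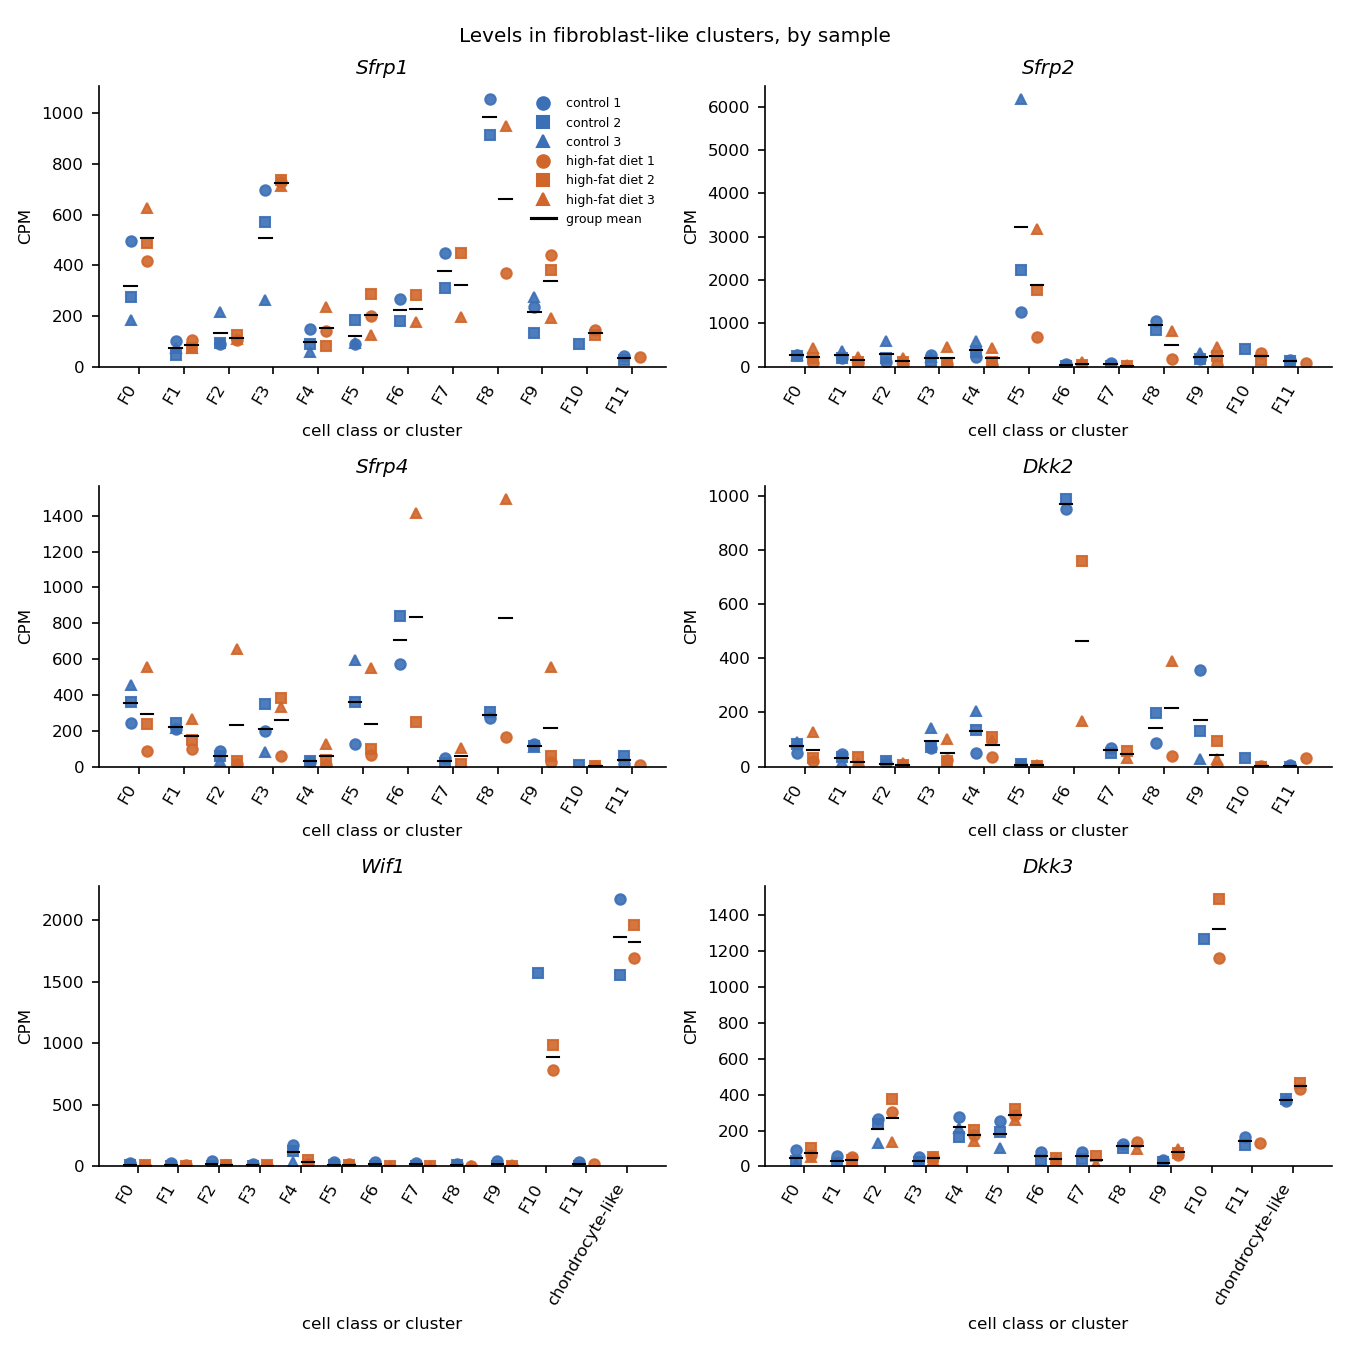
CPM of 6 antagonists (vertical axes) in the fibroblast-like clusters F0 to F11 (horizontal axes), with 1 point per sample that has 20 or more cells (circle, square and triangle for replicates 1, 2 and 3), blue for control and orange for high-fat diet, and bars at group means; the Wif1 and Dkk3 panels add chondrocyte-like cells. Sfrp2 is highest in F5, Dkk2 in F6 and Dkk3 in F10, while Sfrp4 is spread over several clusters and high-fat diet 3 lies on top in F6, F8, F0, F1, F9 and F2.

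Sfrp5 (ENSMUSG00000018822, chromosome 19, 42197971 to 42202252, minus strand), the frizzled-related protein closest to Sfrp1, had its main source in nerve-associated cells. Perineurial cells, the flat cells that wrap nerve bundles, were found as a cluster of 47 cells with 9 of 9 perineurial markers detected. All 47 had an Sfrp5 UMI (exact 95% interval from 92.5%), without thinning and at a median of 4260 UMIs per cell, against 1.20% of leukocytes. The pooled level was 6100 CPM (1339 UMIs, exact Poisson interval 5777 to 6436, which covers counting error only). By sample it was 1509, 6196 and 6937 CPM in the controls, from 3, 9 and 19 cells, and 8464, 3937 and 4213 CPM on high-fat diet, from 5, 5 and 6 cells. No comparison of diets was made with so few cells.

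The other 8 antagonists were low in the same 47 cells. Sfrp1 had 91.1 CPM, Dkk3 63.8 CPM, Sost 41 CPM and Sfrp2 22.8 CPM. Sfrp4, Wif1 and Dkk2 had 1 UMI each. Frzb had 0 UMIs, which allows up to 13.7 CPM for a limit of 3 counts. The Sost and Sfrp2 levels rested on 9 and 5 UMIs. Their exact Poisson intervals, 18.7 to 77.8 and 7.40 to 53.2 CPM, covered the leukocyte means of 60.5 and 37.2 CPM. Control 3 gave 19 of the 47 cells, and its leukocytes had 19.7 CPM of Sost and 23.5 CPM of Sfrp2.

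Schwann-like cells, the glia of the same nerves, were the next source of Sfrp5. They had 157, 322 and 694 CPM in the controls and 265, 217 and 370 CPM on high-fat diet, and were above fibroblast-like cells in 6 of 6 samples. After thinning, 28.9% ± 12 (SD, n = 6) of Schwann-like cells had an Sfrp5 UMI (46.7% before, at a median of 2733 UMIs), against 0.29% of leukocytes. In this class 2 of 9 perineurial markers were found in at least 10% of cells; their part in the Sfrp5 level was not tested.

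Fibroblast cluster F3 held Sfrp5 mainly in control 1. Its level was 304 CPM in control 1 and 0.417 to 25.4 CPM in the other 5 samples, and 417 of the 417 F3 UMIs of control 1 came from the first of its 2 gel-bead wells. Of 2331 F3 cells, 13 carried at least 3 of the perineurial markers, and these had 4275 CPM (419 UMIs), while the other 2318 F3 cells had 4.25 CPM, beside a leukocyte mean of 2.90 CPM. In control 1 there were 8 such cells with 389 Sfrp5 UMIs, in high-fat diet 2 there were 3 with 26 UMIs (1551 CPM), and in high-fat diet 1 there were 2 with 4 UMIs. Of the 463 Sfrp5 UMIs in F3, 419 thus lay in the cells with perineurial markers; the other F3 cells had 21.6 CPM in control 1 and 0.417 to 3.94 CPM elsewhere.

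**Figure D3:**
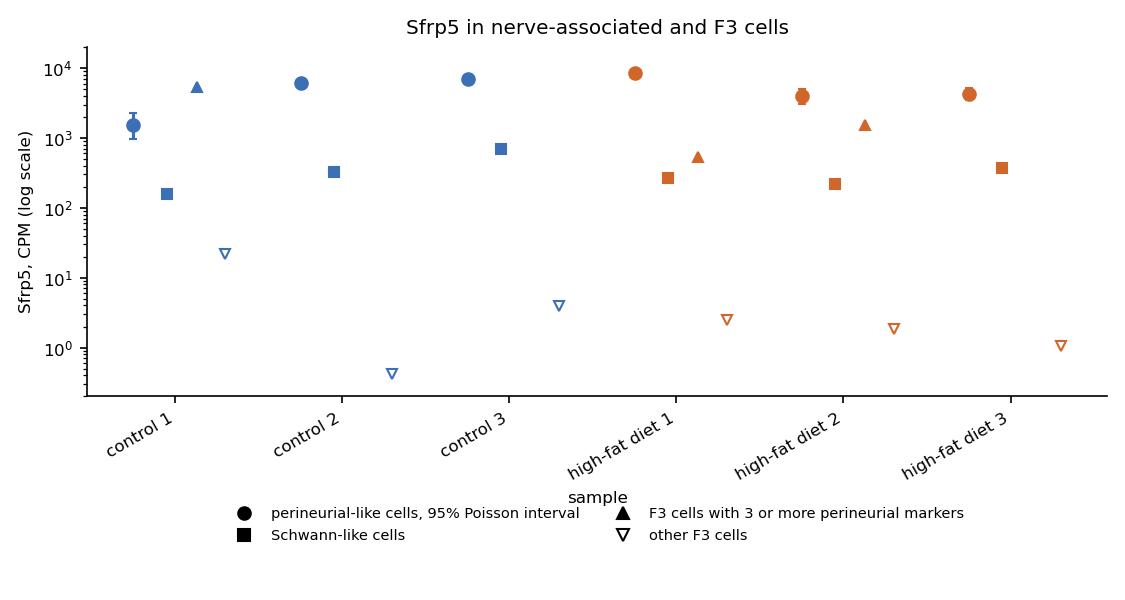
Sfrp5 in CPM on a log axis (vertical) for each of the 6 samples (horizontal): circles are perineurial-like cells with 95% Poisson intervals, squares Schwann-like cells, filled triangles F3 cells with at least 3 perineurial markers and open triangles the other F3 cells, in blue for control and orange for high-fat diet. Perineurial-like cells lie between 1509 and 8464 CPM and Schwann-like cells between 157 and 694 CPM, while F3 cells without the markers lie at 0.417 to 21.6 CPM.

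Wif1 (ENSMUSG00000020218, chromosome 10, 121033960 to 121100650, plus strand) encodes Wnt inhibitory factor, which binds Wnts through a domain of its own and is known from cartilage surfaces. Chondrocyte-like cells, which were led by Chad, Col2a1 and Cytl1 and expressed 6 of 7 cartilage markers, had 2170 and 1554 CPM in controls 1 and 2 and 1693 and 1959 CPM on high-fat diet (replicates 1 and 2). F10 had 1571 CPM in control 2 and 782 and 989 CPM on high-fat diet (replicates 1 and 2). Control 3 and high-fat diet 3 had fewer than 20 cells of either type. The 4 values of chondrocyte-like cells overlapped between the diets. After thinning, 61.8% of chondrocyte-like and 35.1% of F10 cells had a Wif1 UMI, against 1.18% of leukocytes, and the unthinned shares were 83.8%, 66.8% and 4.33%. F10 had 0 of 7 listed cartilage markers in at least 10% of its cells, but Ucma, a cartilage gene outside that list, was among the leading genes of both types. F10 was 66.5- to 219-fold above F2 in 3 of 3 samples.

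The third level of Wif1 was far lower, in F4 (Col23a1, Adh7 and Spon2) and in the smooth muscle clusters S0 and S1. In smooth muscle-like cells Wif1 was 73.8, 54.5 and 11.3 CPM in the controls and 25.6, 34.9 and 17.9 CPM in the high-fat diet samples. Leukocytes of the same samples had 37.2, 9.52 and 1.26 CPM and 5.88, 9.28 and 1.54 CPM. The muscle level was above the leukocyte level in 6 of 6 samples, and both were highest in control 1.

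Sost (ENSMUSG00000001494, chromosome 11, 101962458 to 101967015, minus strand) had the most UMIs of the set, 86997, and its main source was smooth muscle. In smooth muscle-like cells, which expressed 9 of 9 contractile markers, it was 629, 1045 and 459 CPM in the controls and 1056, 911 and 963 CPM on high-fat diet. Controls 1 and 3 were the lowest, and control 2 lay within the range of the high-fat diet samples. After thinning, 46.3% ± 8.53 (SD, n = 6) of these cells had a Sost UMI, against 5.64% ± 3.15 of leukocytes, and 83.1% and 18.9% did so before thinning at median depths of 6678.5 and 3133 UMIs.

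Within the muscle Sost was not even. S0 (Igfbp2, Mylk4 and Ptprz1), S1 (Rbp4) and S4 (Rgs5 with the posterior Hox genes Hoxa10 and Hoxc10) had means of 1072, 1046 and 965 CPM and did not differ from each other beyond their spread. S2, S10 and S7 followed with means of 903, 851 and 802 CPM, from 5, 4 and 3 samples with at least 20 cells. S3 (Tnnt2, Corin and Hand2) had 565 ± 150 CPM, and S0 was above it in 6 of 6 samples by 1.53- to 2.74-fold. S5 (Sorbs2, Timp4 and Sncg) had 114, 392 and 112 CPM in the controls and 253, 382 and 584 CPM in the high-fat diet samples, and S0 exceeded it by 2.25- to 7.90-fold. S9 (Nrip2, Olfr558 and Pln) had 52.2 ± 25 CPM, below the leukocyte mean of 60.5 CPM. Pericyte-like cells had 79.1 ± 50.7 CPM and were exceeded by smooth muscle-like cells in 6 of 6 samples, by 3.95- to 26-fold.

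Outside the muscle most Sost was at the background. Fibroblast-like cells had 89.9, 19.2 and 19.5 CPM in the controls and 66.8, 85.0 and 37.9 CPM in the high-fat diet samples. These were below the leukocyte values of the same samples, 101, 21.2 and 19.7 CPM and 80.5, 98.1 and 42.1 CPM, in 6 of 6 samples. Per 1000 UMIs of the muscle myosin gene Myh11, fibroblast-like cells carried 384 ± 113 Sost UMIs, macrophage-like cells 356 ± 123 and smooth muscle-like cells 347 ± 117 (SD, n = 6 each), the same proportion within the spread. Arterial endothelial-like cells had 124 ± 68.6 CPM, above the leukocytes in 6 of 6 samples, and 764 ± 598 Sost UMIs per 1000 of Myh11. That ratio ranged from 331 to 1949 between samples and rested on as few as 45 Myh11 UMIs in a sample.

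**Figure D4:**
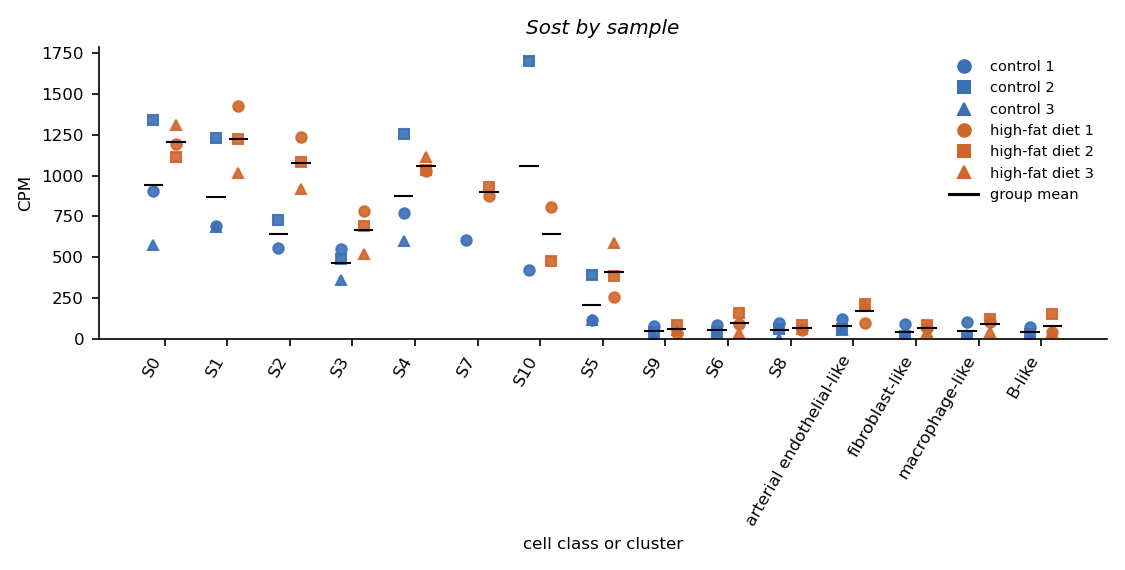
Sost in CPM (vertical axis) by muscle cluster and by comparison class (horizontal axis), with 1 point per sample that has 20 or more cells (circle, square and triangle for replicates 1, 2 and 3), blue for control and orange for high-fat diet, and bars at group means. S0, S1 and S4 average 965 to 1072 CPM, S5 306 CPM and S9 52.2 CPM, while fibroblast-like cells lie between 19.2 and 89.9 CPM.

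Dkk2 (ENSMUSG00000028031, chromosome 3, 132085292 to 132180304, plus strand), a Dickkopf ligand of LRP5 and LRP6, came mainly from 1 fibroblast cluster. F6, which made up 1.54% of the cells, held 41.8% of its UMIs. F6 had 951 and 987 CPM in controls 1 and 2 and 760 and 168 CPM on high-fat diet (replicates 2 and 3), high-fat diet 3 resting on 44 cells. Its mean of 717 ± 379 CPM (n = 4) was above the next cluster, F8 with 178 ± 156 CPM, by more than the larger SD. F6 exceeded F7 by 5.18- to 20.04-fold in 4 of 4 samples, and 39.8% ± 19.3 of its thinned cells had a Dkk2 UMI (66.1% before thinning, at a median of 4749 UMIs), against 0.36% of leukocytes (1.00% before). F9 (the interferon response genes Ifit1 and Isg15) ranged from 1.27 CPM in high-fat diet 1 to 358 CPM in control 1. Smooth muscle-like cells had 2.08 ± 1.78 CPM, no more than the leukocytes (2.58 CPM).

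Dkk3 (ENSMUSG00000030772, chromosome 7, 112116017 to 112159057, minus strand), a divergent Dickkopf protein whose action on Wnt signalling is less settled, was found in both muscle and fibroblasts. F10 was again the highest type, with 1269 CPM in control 2 and 1161 and 1490 CPM on high-fat diet (replicates 1 and 2). It stood 2.70- to 3.36-fold above chondrocyte-like cells, which had 409 ± 47.8 CPM (n = 4). After thinning, 73.3% of F10 cells had a Dkk3 UMI (96.4% before), against 2.54% of leukocytes (9.44% before). Smooth muscle-like cells had 190, 185 and 124 CPM in the controls and 169, 199 and 156 CPM in the high-fat diet samples, and their clusters S0, S1, S2, S3 and S4 had means of 173 to 184 CPM, nearer to each other than their spread. Among the other muscle clusters, S7 had 248 CPM, S5 87.9 CPM and S9 29.5 CPM, the last close to the leukocyte level of 27.4 CPM. Among fibroblast clusters F2, F5 and F4 averaged 240, 235 and 196 CPM and F1 33.4 CPM, also close to the leukocytes. F2, F5 and F4 were each above F1 in 6 of 6 samples.

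Some cells held more than 1 antagonist. After thinning to 1000 UMIs, 84 of 333 F10 cells had UMIs of both Wif1 and Dkk3, and Dkk3 was found in 73.7% of the cells with Wif1 and 69.9% of those without. In F6, Sfrp4 was found in 28.9% of the cells with Dkk2 and 27.7% of the others. In F5, Dkk3 was found in 19.7% of the cells with Sfrp2 and 22% of the others. The shares lay further apart in other pairs. In F8, cells with Sfrp1 had Sfrp2 in 35.3% and Sfrp4 in 42.2%, against 20.6% and 29.2% of the cells without it. In chondrocyte-like cells Dkk3 was found in 34% of the cells with Wif1 and 24.1% of the others. S10 had Sfrp2 in 42.1% of the cells with Sost and 18.4% of those without, the cells coming from 4 samples whose Sost and Sfrp2 levels both were highest in control 2. These counts pool the cells of all samples and are a description.

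For each antagonist the most alike genes were sought over the 20 named classes, by Pearson's r of log2(CPM + 1) of the class means among 12533 genes. Sost was most like the integrin gene Itga8 (r = 0.92), then Optc and Kcnmb1, a potassium channel subunit gene of smooth muscle. Wif1 was most like the cartilage genes Mia (r = 0.92), Acan and Ucma, and Sfrp5 like Tenm2 (r = 0.94), Hcn4 and Cnksr2. Sfrp2 was most like the collagen processing gene Pcolce2 (r = 0.91), then Loxl1 and Mfap4, and Dkk3 like Loxl3 (r = 0.91), Tenm3 and Chadl. Sfrp4 was most like the matrix gene Dpt (r = 0.85), then Htra3 and Fam150b, Dkk2 like the fibroblast receptor gene Pdgfra (r = 0.84), Tmem100 and Cilp, Frzb like Stk32b (r = 0.85), Negr1 and Epha7, and Sfrp1 like Nmnat2 (r = 0.80), Lsamp and Frmd3. Among the antagonists themselves the highest r was that of Sfrp2 and Dkk3 (0.72), and Sfrp5 had an r from -0.28 to 0.40 with each of the other 8. The 20 points share their libraries and free RNA, and the classes differ in depth, so the values of r describe these classes only.

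The comparison of diets asked whether any antagonist differed between high-fat diet and control within a cell type. In smooth muscle-like cells 0 of the 9 passed an adjusted p of 0.05 (edgeR quasi-likelihood test, Benjamini-Hochberg adjustment over all genes tested), where the share over all 13271 genes was 0%. At an unadjusted p under 0.05 there were 0 antagonists and 1196 genes (9.01%), and DESeq2 called 90 genes and 0 antagonists. Sost, the main muscle product of the set, had a log2 difference of 0.44 (high-fat diet minus control, SE 0.29, adjusted p = 0.67), with group means of 711 ± 301 CPM in the controls and 976 ± 73.4 CPM on high-fat diet (SD, n = 3 each). Sfrp2 had -0.77 (SE 0.48, adjusted p = 0.66), Wif1 -0.81 (SE 0.60, adjusted p = 0.70) and Dkk3 0.06 (SE 0.17, adjusted p = 0.93). The remaining values were 0.54 for Sfrp1, -0.80 for Sfrp5, -0.18 for Sfrp4, -0.46 for Frzb and -0.97 for Dkk2, with adjusted p from 0.70 to 0.94. The median of the 9 was -0.46 and that of all genes -0.02, and 3 of the 9 were positive. The summed markers of smooth muscle in these cells were 20952 to 34869 CPM in the controls and 23996 to 28775 CPM on high-fat diet.

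In fibroblast-like cells 0 of the 9 passed by edgeR, as did 0% of 13834 genes, with 1 antagonist and 1457 genes (10.5%) at an unadjusted p under 0.05. DESeq2 called 203 genes and 0 antagonists. That gene was Sfrp1, at 265, 186 and 184 CPM in the controls and 275, 269 and 382 CPM on high-fat diet. The high-fat diet samples lay above the controls without overlap, as 16.4% of all genes tested did in either direction. Its log2 difference was 0.50 (SE 0.18, unadjusted p = 0.025, adjusted p = 0.41 by edgeR), and its adjusted p ranged from 0.170 to 0.885 over the alternative settings. Sfrp2 had -0.41 (SE 0.77), Sfrp4 0.13 (SE 0.83), Wif1 -0.48 (SE 1.26), Sost 0.56 (SE 0.61), Dkk2 -0.62 (SE 0.69), Dkk3 0.56 (SE 0.46) and Frzb 0.08 (SE 0.30). Some source clusters were recovered unevenly. F10, with 2272 of the 4116 fibroblast-like Wif1 UMIs, had 11, 94 and 2 cells in the controls and 158, 68 and 0 on high-fat diet. F6, with 3969 of the 8736 Dkk2 UMIs, had 164, 359 and 2 cells against 10, 316 and 44. F8 had 370 cells in high-fat diet 3 and 6 to 80 elsewhere. The part of these cell numbers in the class values was not tested. The value of Sfrp5, -2.51 (SE 1.41), became 0.53 without control 1, the sample with the marker-carrying F3 cells. The summed smooth muscle markers in fibroblast-like cells were 586 to 3080 CPM in the controls and 1329 to 3023 CPM on high-fat diet, and their part in the Sost value was not tested. The 9 summed fibroblast markers of the same cells did not overlap, at 34034 to 43372 CPM in the controls and 22990 to 33746 CPM on high-fat diet, and their part in the Sfrp1 value was not tested.

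**Figure D5:**
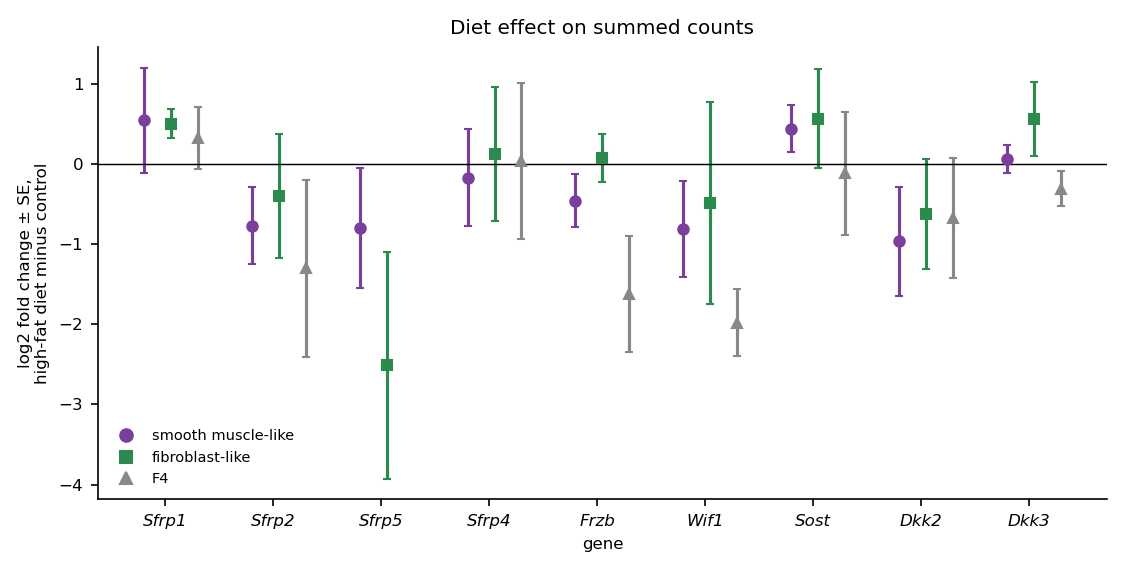
Log2 fold change of each antagonist (horizontal axis), high-fat diet minus control, with its standard error (vertical axis), from the edgeR test on summed counts of 3 against 3 samples, for smooth muscle-like cells (circles), fibroblast-like cells (squares) and fibroblast cluster F4 (triangles). None of the values drawn passed an adjusted p of 0.05; Sfrp5 in fibroblast-like cells at -2.51 has the widest error, and Wif1 in F4 lies at -1.98.

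Whether the diet difference itself differed between fibroblast-like and smooth muscle-like cells was tested as an interaction on the 12 sums with the sample as a block. By edgeR 0 of the 9 antagonists and 0% of 14363 genes passed, each antagonist having an adjusted p of 1.00. At an unadjusted p under 0.05 there were 368 genes and 0 antagonists. No difference between these cell types in the diet effect was thus detected with 3 samples per diet.

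Across 27 classes and clusters that reached 20 cells in all 6 samples, 162 pairs of an antagonist and a type were measured. By edgeR 0 pairs passed, beside 425 of 235380 gene and type pairs (0.181%), and 14 pairs had an unadjusted p under 0.05 (against 9.12% of all gene and type pairs). DESeq2 called 2 pairs, Wif1 in F4 and Sfrp2 in pericyte-like cells, beside 0.23% of the 456692 gene and type pairs it was given, which were not filtered on low counts. In 8 of the 162 pairs the samples of the diets did not overlap, where 14.7% of all gene and type pairs did not. The antagonists' shares at an unadjusted p and without overlap were thus not above those of all genes.

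Wif1 in F4 had the smallest p of these. It was 177, 128 and 38.9 CPM in the controls and 22.6, 49.4 and 27.8 CPM on high-fat diet, so that control 3 lay among the high-fat diet samples. Control 3 and high-fat diet 3 rested on 23 and 33 F4 cells, with 4 Wif1 UMIs each. Its log2 difference was -1.98 (SE 0.42, unadjusted p = 9e-04, adjusted p = 0.0530 by edgeR), with F4 having 168 of 10221 genes past the threshold (1.64%) by edgeR and 55 by DESeq2 (0.316% of the unfiltered genes), and 17.3% of genes without overlap. Over 14 alternative settings its adjusted p ranged from 6.23e-10 to 0.871 and passed in 9. Of the F4 cells of control 2, the first gel-bead well had 196 CPM and the second 11.6 CPM, and the value from second wells alone was -0.51. The 7 summed cartilage markers in F4 were 0 to 70.7 CPM in the controls and 5.31 to 21.1 CPM on high-fat diet. The Wif1 of leukocytes was 1.26 to 37.2 CPM in the controls and 1.54 to 9.28 CPM on high-fat diet. The part of these values in the difference was not tested.

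Sfrp2 in pericyte-like cells was 104, 71.9 and 214 CPM in the controls and 48.1, 35.9 and 47.2 CPM on high-fat diet, without overlap. Its log2 difference was -1.59 (SE 0.39, adjusted p = 0.31 by edgeR and 0.0224 by DESeq2, and 1.22e-07 to 0.822 over the alternatives), where 0.0334% of 8992 genes passed by edgeR and 0.114% of the unfiltered genes by DESeq2, 8.52% had an unadjusted p under 0.05 and 12.9% did not overlap. Control 1 rested on 28 pericyte-like cells, and control 3 had 13.6 CPM in its first gel-bead well and 251 CPM in its second. Leukocytes of the same samples had 78.6, 16.01 and 23.5 CPM of Sfrp2 in the controls and 17.1, 36.1 and 51.6 CPM on high-fat diet. Per 1000 UMIs of Dcn, pericyte-like cells carried 55.5 ± 41.5 Sfrp2 UMIs, fibroblast-like cells 47.6 ± 29.9 and macrophage-like cells 65.1 ± 22.8 (SD). The 9 summed fibroblast markers in pericyte-like cells were 6729 to 12266 CPM in the controls and 5432 to 8012 CPM on high-fat diet. Their 9 summed smooth muscle markers were 20377 to 27617 CPM in the controls and 19925 to 28773 CPM on high-fat diet. Smooth muscle-like cells had 20952 to 34869 and 23996 to 28775 CPM of these. The part of these values in the difference was not tested. Dkk3 in F9 was 34.6, 26.4 and 0 CPM in the controls and 66.0, 72.5 and 97.5 CPM on high-fat diet (1.45, SE 0.39, adjusted p = 0.30 by edgeR). In F9 0.144% of all genes passed, 5.75% had an unadjusted p under 0.05, 11.1% did not overlap, and control 3 had 20 cells. Over its 11 alternatives the adjusted p ranged from 0.0242 to 0.733 and passed in 1. F9 held 145 Dkk3 UMIs in all. Leukocytes of the same samples had 50.2, 12.25 and 8.84 CPM of Dkk3 in the controls and 28.7, 49.2 and 15.4 CPM on high-fat diet. The 9 summed fibroblast markers of F9 were 32360 to 36667 CPM in the controls and 20546 to 30250 CPM on high-fat diet, without overlap. The part of these values in the F9 difference was not tested. Dkk3 in mesothelial-like cells was 52.6, 39.4 and 46.2 CPM in the controls and 94.7, 70.7 and 57.6 CPM on high-fat diet (0.68, SE 0.23, adjusted p = 0.37 by edgeR, where 0.0771% of genes passed, 9.31% had an unadjusted p under 0.05 and 15.1% did not overlap).

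Sost in arterial endothelial-like cells was 118, 60.2 and 53.4 CPM in the controls and 98.9, 210 and 205 CPM on high-fat diet, so that control 1 overlapped. Its log2 difference was 1.10 (SE 0.35, adjusted p = 0.60 by edgeR, and 0.000957 to 0.965 over 15 alternatives, passing in 1), with 0% of 6835 genes passing and 470 (6.88%) at an unadjusted p under 0.05. The summed smooth muscle markers in these cells were 817 to 4057 CPM in the controls and 1816 to 5929 CPM on high-fat diet, and their part was not tested. Sost had a positive log2 difference in every other type measured except F4 (-0.12). The difference was 1.28 in F9, 1.21 in lymphatic endothelial-like, 1.15 in B-like and 0.91 in macrophage-like cells, with adjusted p from 0.45 to 0.75 by edgeR. Leukocytes had 19.7 to 101 CPM of Sost in the controls and 42.1 to 98.1 CPM on high-fat diet, and their part was not tested. Within the muscle, Frzb in S1 was 18.8, 12.3 and 14.8 CPM in the controls and 6.34, 6.82 and 10.5 CPM on high-fat diet (-0.89, SE 0.30, adjusted p = 0.37 by edgeR), where 0.22% of genes passed, 10.2% had an unadjusted p under 0.05 and 17.2% did not overlap. Sost in S3 had a log2 difference of 0.50 (SE 0.22, adjusted p = 1.00 by edgeR).

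The other genes of the pathway were read from 6 lists of 76 genes. Among smooth muscle-like cells 0 of 7 measured Wnt ligands, 0 of 15 receptors and co-receptors, 0 of 4 R-spondins and their receptors, 0 of 3 other inhibitors, 0 of 6 β-catenin target genes and 0 of 14 intracellular genes passed in either direction by edgeR. In fibroblast-like cells the counts were 0 of 11, 0 of 15, 0 of 6, 0 of 6, 0 of 7 and 0 of 14. At an unadjusted p under 0.05 there were 2 of 49 measured list genes in smooth muscle-like cells (9.01% of all genes) and 7 of 59 in fibroblast-like cells (10.5% of all genes). The gene with the smallest p in smooth muscle-like cells was the ligand gene Wnt5b, at 5.36 ± 1.29 CPM in the controls and 3.20 ± 0.83 CPM on high-fat diet (SD, n = 3 each), a log2 difference of -0.75 (adjusted p = 0.52 by edgeR).

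Wnt5b was also first in fibroblast-like cells, at 11.8 ± 1.74 CPM in the controls and 6.65 ± 0.67 CPM on high-fat diet (SD, n = 3 each). Its log2 difference there was -0.90 (SE 0.16, adjusted p = 0.17 by edgeR and 0.00613 by DESeq2). The R-spondin gene Rspo2, whose product strengthens Wnt signals, had 2.36 ± 1.31 CPM and 0.39 ± 0.24 CPM and a log2 difference of -2.56 (SE 0.59, adjusted p = 0.25 by edgeR and 0.0116 by DESeq2). The first genes of the other lists in fibroblast-like cells were Fzd1 (0.23), Sostdc1 (-0.69), Lef1 (-1.27) and Porcn (-0.59), with adjusted p from 0.39 to 0.69 by edgeR. For smooth muscle-like cells they were Fzd9 (-1.20), Rspo1 (0.65), Znrf3 (-0.16), Myc (-0.45) and Dvl1 (-0.38), with adjusted p from 0.52 to 0.80 by edgeR.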

How the data were processed

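The files hold UMI counts per gene and cell deposited by the authors for 6 samples, whole numbers with no normalization. The submitters' processing notes name Cell Ranger 3.0 and mm10; cell calling and the annotation are not given in the sources used here. Barcode suffixes show 2 gel-bead wells per sample. Coordinates are from GENCODE vM21 (GRCm38).

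Cells with fewer than 300 genes or at least 20% mitochondrial counts were left out, as were 1379 cells with a Scrublet score over 0.25 (scanpy 1.11.5, per well, expected rate 0.06). From 2000 variable genes, 30 components and 20 neighbours, Leiden clustering (igraph 0.11.9, resolution 1) gave 50 clusters, named "-like" from markers; 11 clusters (1613 cells) stayed unnamed. Fibroblasts (12 clusters, resolution 0.6) and muscle with pericytes (13 clusters, resolution 0.5) were clustered again from 1500 variable genes and 20 components, centred per well. Raw counts were summed per sample and type with at least 20 cells. Diets were compared with edgeR 4.0.16 (quasi-likelihood, TMM factors, filterByExpr), adjusted by Benjamini-Hochberg at 0.05; levels across types carry no test. Shares were taken after thinning each cell to 1000 UMIs. Intervals are exact (Poisson or Clopper-Pearson, 95%) and, like the limit of 3 counts for a count of 0, cover counting error only.

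The antagonists and gene lists were chosen with earlier results of these data known, and the pairs of types set side by side were chosen after their values were seen. Named are all 9 antagonists, the gene of each Wnt list with the smallest unadjusted p (none passed), and the 3 genes most alike by class means among genes with at least 10 CPM in a class, with unnamed gene models, haemoglobin and sex-linked genes left out. The tests were tried on simulated counts that had the same spread between samples for every gene. Their power and error rate in the real data were therefore not measured. Alternatives were DESeq2 1.42.0, RLE factors, a replicate block, no low-count filter, leaving out each sample, doublets kept, a 10% mitochondrial limit, at least 1000 genes per cell, thinned cells and single wells.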

Additional observations from a re-analysis of the deposited data

How the results depend on the processing

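None of the 9 antagonists passed in smooth muscle-like or fibroblast-like cells under any alternative run, and the test of the difference between these cells kept a count of 0. Counts of all genes past the threshold did move from 0: in smooth muscle-like cells to 7 without the filter on low counts, 90 with DESeq2, 5 with thinned cells, 9 from second wells alone and 0 to 3 with 1 sample left out (3 without control 3). In fibroblast-like cells they moved to 17 without the filter, 203 with DESeq2, 5 with thinned cells, 1 from first and 3 from second wells alone and 0 to 2 with 1 sample left out (2 without control 3). Pairs of an antagonist and another type moved from 0 to 7 without the filter, 2 with DESeq2, 1 each with RLE factors, at least 1000 genes per cell and thinned cells, and 0 to 8 with 1 sample left out (8 without control 1). The cause was not tested.

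Replicate numbers did not pair the samples: the correlations of same-numbered samples' deviations were -0.21, 0.07 and 0.41 in smooth muscle-like and 0.04, -0.11 and 0.05 in fibroblast-like cells. With the replicate number as a block, 1 pair passed in other types (Wif1 in F4), and Sfrp4 in fibroblast-like cells went from 0.13 to -0.60.

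Of 387 log2 differences of single antagonists under the alternatives (both classes and 8 other pairs), 346 kept their direction and their side of the threshold, 28 changed sign and 13 newly passed, 9 of these for Wif1 in F4. Log2 differences changed sign without passing in these cases, the cause of which was not tested. In smooth muscle-like cells second wells alone gave -0.54 for Sfrp1, 0.32 for Frzb, 0.28 for Wif1, -0.23 for Dkk3, 0.30 for Myc and 0.068 for Dvl1, and thinned cells gave 0.035 for Sfrp4. In fibroblast-like cells second wells gave -0.13 for Sfrp1, 0.99 for Sfrp5, -0.13 for Frzb, -0.012 for Sost and 0.37 for Dkk2, and first wells 0.0097 for Sfrp2, -0.31 for Sfrp4 and -0.36 for Fzd1. With 1 sample left out, values in smooth muscle-like cells ran from -0.069 to 0.17 for Dkk3, -0.94 to 0.25 for Sfrp4 and -1.29 to 0.11 for Sfrp5. In fibroblast-like cells they ran from -0.17 to 0.34 for Frzb, -1.44 to 0.26 for Sfrp2, -1.36 to 0.61 for Sfrp4, -3.20 to 0.53 for Sfrp5 and -1.01 to 0.073 for Wif1.

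Shares of cells with a UMI rose with depth by construction. Without thinning and at 2000 UMIs they were 66.6% and 51.0% for Sfrp1 in F3, 55.6% and 41.4% for Sfrp4 in F6, 83.8% and 72.7% for Wif1 in chondrocyte-like cells, 83.1% and 63.3% for Sost in smooth muscle-like cells and 96.4% and 83.2% for Dkk3 in F10. Without thinning they were 46.7% for Sfrp5 in Schwann-like cells, 44.0% for Frzb in F10 and 66.1% for Dkk2 in F6. Frzb in F10 was 190 CPM after thinning. First wells alone gave no value in 17 types, second wells in 11 and the 10% mitochondrial limit in 2, for want of 20 cells in each sample, and doublets were kept only for classes, not for clusters F and S.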

Other observations

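Other Wnt genes were also concentrated in single types, given here as means of CPM per type with no test. Perineurial-like cells, the main source of Sfrp5, had the ligand genes Wnt6 at 620 CPM and Wnt10a at 137 CPM and the receptor gene Fzd2 at 405 CPM, each pooled over 47 cells; Wnt6 was next highest in Schwann-like cells (120 ± 57.1 CPM, SD, n = 6). Schwann-like cells held most of Sostdc1, a relative of Sost, at 600 ± 269 CPM (n = 6), with 68.3 CPM in perineurial-like cells. Wnt5a, a ligand that often acts without β-catenin, was highest in F5 (161 ± 42.5 CPM, n = 6), the cluster with the highest Sfrp2, and in F0 (125 ± 31.6 CPM).

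The enhancer gene Rspo1 was highest in mesothelial-like cells (500.4 ± 84.1 CPM, n = 6). Rspo3 was highest in S10 (250 ± 114 CPM, n = 4) and chondrocyte-like cells (222 ± 92.2 CPM, n = 4), and the R-spondin receptor gene Lgr6 in S10 (201 ± 79.2 CPM). Chondrocyte-like cells, the main source of Wif1, also had the highest Fzd9 (213 ± 37.1 CPM, n = 4) and the highest Notum (80.05 ± 13.4 CPM), which encodes an enzyme that inactivates Wnts. Axin2, a widely used β-catenin target gene, stayed low and was highest in F4 (30.0 ± 10.4 CPM, n = 6). Nkd1 was highest in S9 (184 ± 17.2 CPM, n = 6), a muscle cluster whose Sost was below the leukocyte mean. Smooth muscle-like cells, the main source of Sost, also held Nkd1, at 132 ± 38.5 CPM in the controls and 120.01 ± 12.2 CPM on high-fat diet (SD). A relation between the levels of Nkd1 and Sost was not tested. Dkk1 had 29 UMIs and Dkk4 0 UMIs in the typed cells.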
